A study of Mus musculus with 27 samples.

Results

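MicroRNAs (miRNAs) of the hippocampus were compared between sham-operated mice that received xanthohumol (Xmo), a prenylated flavonoid of hops, and sham-operated mice that received saline, over all mature miRNAs in the deposited table. The members were 6 small RNA libraries of 27 libraries in the series, namely sham Xmo 1 to 3 and sham saline 1 to 3. Of 1387 mature miRNAs with a row in the table, 605 had enough reads to be tested. The same table held 3 libraries from ovariectomized (OVX) mice given Xmo and 3 from OVX mice given saline, which entered the same model and served for a further comparison of Xmo with saline. All mice were of the outbred ICR strain, per the labels, and the dose, duration and route of Xmo and the age of the mice are not given in the sources used here. Nothing in the labels says whether a library held 1 animal or a pool, so p-values measure only the spread between these libraries.

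A miRNA is cut as a hairpin from a longer transcript, and either arm of the hairpin, named 5p or 3p, can be loaded into an Argonaute protein. The loaded strand pairs with messenger RNAs mainly through its seed, bases 2 to 8, and lowers their stability and translation. In the hippocampus the pool is led by miRNAs of neurons such as miR-124 and miR-9, while liver, blood, choroid plexus and sensory neurons each have miRNAs by which they are known.

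The sequences of the miRNAs on which the results turn are given 5′ to 3′ from the deposited table, with the seed in capitals. Both arms of miR-412 are shown because they behaved differently in the comparison.
miR-412-5p: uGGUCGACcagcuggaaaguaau
miR-412-3p: uUCACCUGguccacuagccg
They come from 1 hairpin of the imprinted Dlk1-Dio3 region, chr12:109743303-109743325, plus strand and chr12:109743340-109743359, plus strand (GRCm38.p6, RefSeq). In the hairpin below the capitals mark the mature 5p and 3p arms, and it spans chr12:109743289-109743368 on the plus strand.
Mir412 hairpin: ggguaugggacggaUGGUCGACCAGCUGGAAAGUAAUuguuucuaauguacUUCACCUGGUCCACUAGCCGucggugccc
The next sequences belong to 8 of the other higher and lower miRNAs described below, a selection given so that their seeds can be compared.
miR-551b-3p: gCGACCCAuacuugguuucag
miR-541-3p: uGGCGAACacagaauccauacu
miR-200a-3p: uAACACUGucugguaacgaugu
miR-135a-5p: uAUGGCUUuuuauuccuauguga
miR-342-3p: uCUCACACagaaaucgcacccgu
miR-335-5p: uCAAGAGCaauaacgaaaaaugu
miR-16-5p: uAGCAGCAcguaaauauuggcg
miR-93-5p: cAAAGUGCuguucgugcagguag
Their positions in GRCm38.p6 are chr3:29416879-29416899, plus strand for miR-551b-3p, chr12:109742466-109742487, plus strand for miR-541-3p, chr4:156054911-156054932, minus strand for miR-200a-3p and chr12:108658680-108658702, plus strand for miR-342-3p. miR-335-5p lies at chr6:30741314-30741336, plus strand, and miR-93-5p at chr5:138165574-138165596, minus strand. miR-135a-5p has 2 copies, chr9:106154140-106154162, plus strand and chr10:92072141-92072163, minus strand, and so has miR-16-5p, chr3:69009918-69009939, plus strand and chr14:61631936-61631957, minus strand, and reads of the copies cannot be told apart. None of these 8 seeds is shared within the group.

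No miRNA passed the test in sham Xmo against sham saline. edgeR's quasi-likelihood test with Benjamini-Hochberg adjustment called 0 of 605 miRNAs (0% called at an adjusted p under 0.05), and the smallest adjusted p was 0.0716. At an unadjusted p under 0.05 there were 57 miRNAs (9.42% of those tested), of which 34 lay higher (5.62%) and 23 lower (3.80%) in sham Xmo. The 3 sham Xmo libraries lay wholly above or below the 3 sham saline libraries in 86 miRNAs (14.2% of those tested), 49 higher (8.10%) and 37 lower (6.12%). DESeq2 called 6 of the 605 (0.992%), of which miR-122-5p, miR-551b-3p and miR-541-3p lay higher and miR-412-5p, miR-669c-5p and miR-342-3p lower. The median log2 fold change over all tested miRNAs was -0.02, and 47.3% of them lay above 0.

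**Figure D1:**
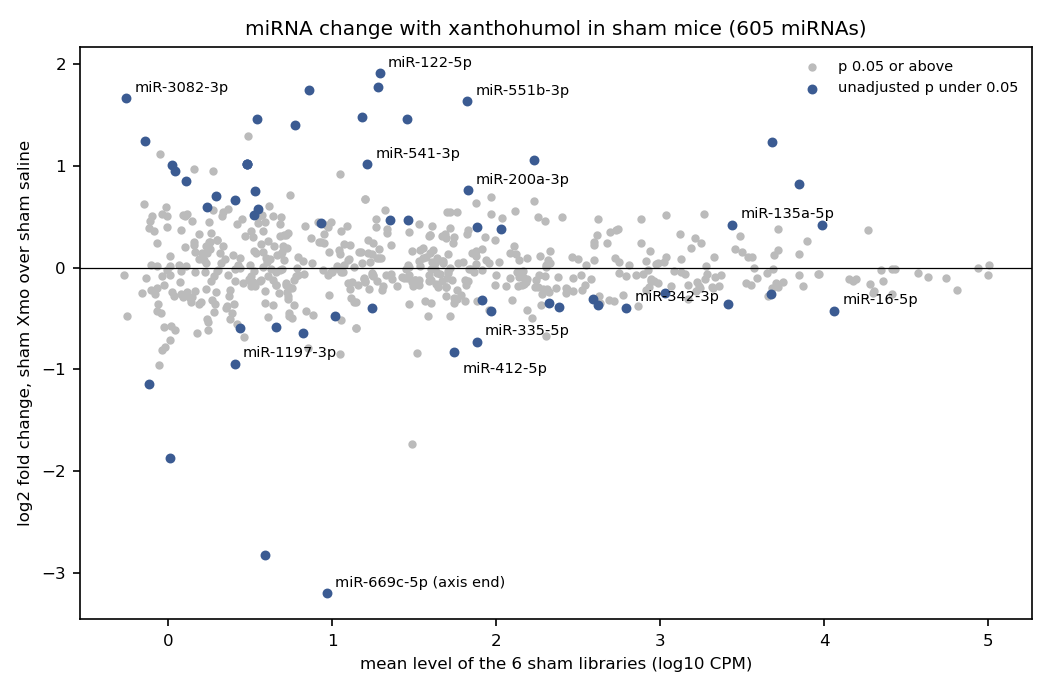
Each point is 1 of 605 miRNAs, with its mean level in the 6 sham libraries (log10 CPM, counts scaled to library size) on the x axis and its log2 fold change, sham Xmo over sham saline, on the y axis; blue marks an unadjusted p under 0.05. miR-122-5p lies highest, miR-412-5p lies lower at a similar level, and the abundant miRNAs on the right lie close to 0; miR-669c-5p is drawn at the end of the axis.

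The libraries were deep and alike in size. The 6 sham libraries held between 9660869 and 10566207 miRNA reads, and between 957 and 1011 of the 1387 miRNAs had a read. Levels are CPM after TMM scaling (trimmed mean of M-values), and 3 reads in a library amounted to between 0.283 and 0.320 CPM. The Pearson r of log2 CPM between replicates of a sham group lay between 0.976 and 0.990 across miRNAs. The 10 most abundant miRNAs took between 52.9% and 58.9% of the reads of a sham library.

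The abundant miRNAs of the hippocampus had closely similar levels in both groups. miR-124-3p, the main miRNA of neurons, had 92305, 94128 and 74408 CPM in sham Xmo 1 to 3, against 87137, 85447 and 89071 CPM in sham saline 1 to 3. The libraries of the groups overlapped (edgeR log2 fold change -0.0045 with SE 0.13, adjusted p = 0.987). miR-9b-3p, which RefSeq places on the strand opposite to miR-9-5p, averaged 101736 ± 17646 CPM in the sham Xmo libraries, against 99997 ± 7785 CPM in the sham saline libraries (SD, n = 3 each), and miR-26a-5p 97923 ± 7172 CPM in the sham Xmo libraries, against 102854 ± 9073 CPM in the sham saline libraries (SD, n = 3 each). Their log2 fold changes were 0.02 and -0.07. miR-9-5p itself was not among the 10 most abundant, and the assignment of reads to strands was not tested. The log2 fold changes of the other 7 of the 10 were -0.22 for let-7c-5p, -0.26 for let-7a-5p, -0.10 for miR-99a-5p, -0.09 for miR-22-3p, -0.05 for miR-181a-5p, -0.01 for miR-127-3p and -0.02 for miR-218-5p.

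miR-412-5p had the smallest p of the comparison and lay lower in sham Xmo. It had 39.7, 41.3 and 38.2 CPM in sham Xmo 1 to 3, against 74.1, 75.4 and 62.1 CPM in sham saline 1 to 3. The sham Xmo libraries lay close together, all below the sham saline libraries (edgeR log2 fold change -0.83 with SE 0.14, adjusted p = 0.0716). The other arm of the hairpin, miR-412-3p, had 35.4, 36.1 and 32.6 CPM in sham Xmo 1 to 3, against 33.9, 32.5 and 33.2 CPM in sham saline 1 to 3, and its libraries overlapped (edgeR log2 fold change 0.06 with SE 0.18, adjusted p = 0.917). The reads of the 5p arm were 1.12, 1.14 and 1.17 times those of the 3p arm in sham Xmo 1 to 3, against 2.19, 2.32 and 1.87 times in sham saline 1 to 3. The ratio of the arms was thus lower in all 3 sham Xmo libraries, and with 3 libraries against 3 an exact permutation test cannot give a two-sided p below 0.1. In OVX mice the ratio was 1.41, 1.43 and 2.04 in OVX Xmo 1 to 3, against 2.06, 2.07 and 2.01 in OVX saline 1 to 3, with overlap. In the OVX mice miR-412-5p had 46.7, 33.2 and 37.7 CPM in OVX Xmo 1 to 3, against 66.4, 66.6 and 67.6 CPM in OVX saline 1 to 3, again without overlap (log2 fold change -0.77; edgeR unadjusted p = 0.00023, adjusted p = 0.0696). There miR-412-3p had 33.2, 23.3 and 18.5 CPM in OVX Xmo, against 32.2, 32.2 and 33.6 CPM in OVX saline.

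miR-122-5p, the miRNA that hepatocytes make in greatest amount, lay higher in sham Xmo. It had 32.6, 32.9 and 26.8 CPM in sham Xmo 1 to 3, against 7.805, 8.45 and 8.21 CPM in sham saline 1 to 3. The sham saline libraries lay close together, and every sham Xmo library was well above them (edgeR log2 fold change 1.91 with SE 0.36, adjusted p = 0.0716). These levels rest on 333, 308 and 285 reads in sham Xmo, against 80, 84 and 86 reads in sham saline. The opposite arm, miR-122-3p, was scarce, with 19, 15 and 9 reads in sham Xmo 1 to 3, against 10, 21 and 14 reads in sham saline 1 to 3 (log2 fold change -0.04). In OVX mice miR-122-5p had 29.4, 107 and 73.9 CPM in OVX Xmo 1 to 3, against 6.83, 6.402 and 7.696 CPM in OVX saline 1 to 3 (log2 fold change 3.33; edgeR adjusted p = 0.00148). The Xmo difference in OVX mice exceeded that in sham mice by 1.41 on the log2 scale, and this did not pass (SE 0.50; edgeR unadjusted p = 0.0158, adjusted p = 0.647). miR-192-5p, also abundant in liver and looked at after its values were seen, had 225, 285 and 217 CPM in sham Xmo 1 to 3, against 295, 293 and 278 CPM in sham saline 1 to 3. Its level in sham saline was far above that of miR-122-5p, so these values cannot speak to the source of miR-122-5p, which was not tested.

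**Figure D2:**
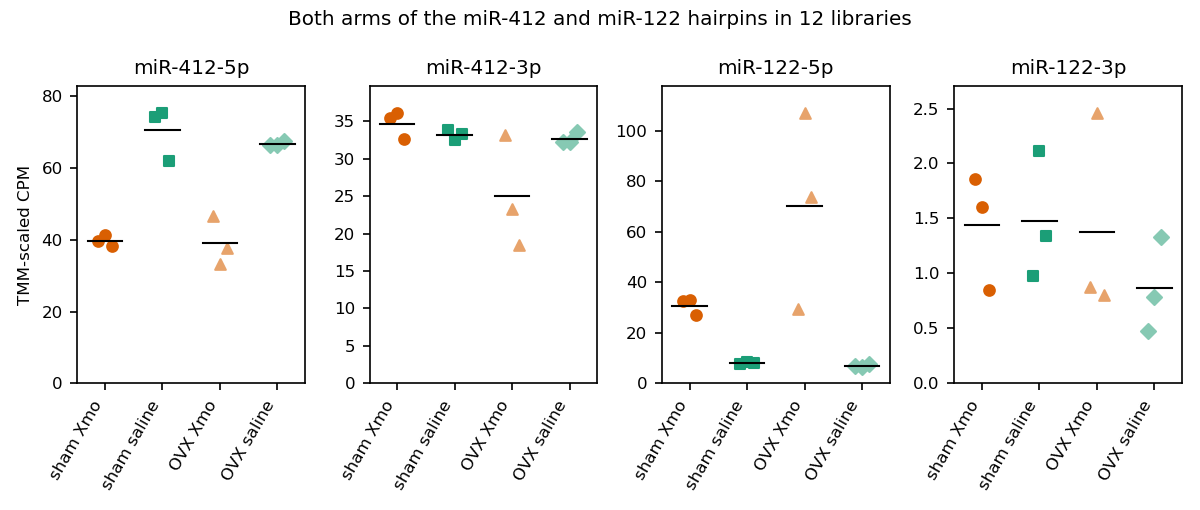
TMM-scaled CPM of both arms of the miR-412 and miR-122 hairpins in each of 12 libraries, with groups along the x axis, 3 libraries a group and bars at the group means; each y axis starts at 0. miR-412-5p is lower and miR-122-5p higher in both Xmo groups than in their saline groups, while miR-412-3p and miR-122-3p overlap between sham Xmo and sham saline.

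Further miRNAs higher in sham Xmo included miR-551b-3p, which had 95.2, 42.8 and 163 CPM in sham Xmo 1 to 3, against 32.97, 26.1 and 38.02 CPM in sham saline 1 to 3. Its sham Xmo libraries ranged widely, and none overlapped with sham saline (edgeR log2 fold change 1.64 with SE 0.45, adjusted p = 0.311). Its other arm, miR-551b-5p, had 35.1, 44.97 and 31.6 CPM in sham Xmo 1 to 3, against 34.4, 48.01 and 39.7 CPM in sham saline 1 to 3 (log2 fold change -0.13). miR-541-3p, encoded beside miR-412 in the Dlk1-Dio3 region, had 20.1, 18.7 and 26.9 CPM in sham Xmo 1 to 3, against 7.71, 9.86 and 14.9 CPM in sham saline 1 to 3 (edgeR log2 fold change 1.02 with SE 0.28, adjusted p = 0.311). The 5p arm of miR-541 was more abundant and varied widely, with 463, 400.5 and 438 CPM in sham Xmo 1 to 3, against 572, 824 and 224 CPM in sham saline 1 to 3.

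miR-200a-3p, which belongs to a family of epithelial cells that represses the transcription factors Zeb1 and Zeb2, had 97.1, 71.7 and 83.6 CPM in sham Xmo 1 to 3, against 44.7, 41.9 and 62.6 CPM in sham saline 1 to 3. No library overlapped (edgeR log2 fold change 0.76 with SE 0.22, adjusted p = 0.393). miR-135a-5p, a miRNA enriched in brain, had 2605, 3256 and 3541 CPM in sham Xmo 1 to 3, against 2369, 2318 and 2323 CPM in sham saline 1 to 3. The 3 sham saline libraries lay close together and all sham Xmo libraries above them (edgeR log2 fold change 0.42 with SE 0.13, adjusted p = 0.393). Its close relative miR-135b-5p, which is 1 edit away, had 522, 636 and 664 CPM in sham Xmo 1 to 3, against 384, 313 and 717 CPM in sham saline 1 to 3, with overlap (log2 fold change 0.37). miR-344b-3p had 95.5, 80.9 and 82.6 CPM in sham Xmo 1 to 3, against 57.9, 68.5 and 70.3 CPM in sham saline 1 to 3 (edgeR log2 fold change 0.40 with SE 0.13, adjusted p = 0.393).

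The remaining 4 of the 10 higher miRNAs were scarce. miR-3082-3p had 0.978, 0.427 and 1.13 CPM in sham Xmo 1 to 3, against 0.3902, 0.101 and 0.287 CPM in sham saline 1 to 3 (edgeR log2 fold change 1.67 with SE 0.45, adjusted p = 0.311), that is between 1 and 12 reads a library. miR-6954-3p had 0.685, 0.855 and 1.507 CPM in sham Xmo 1 to 3, against 0.488, 0.503 and 0.287 CPM in sham saline 1 to 3, and let-7f-2-3p 1.47, 1.496 and 1.41 CPM in sham Xmo 1 to 3, against 0.585, 0.805 and 0.8597 CPM in sham saline 1 to 3. miR-466b-3p had 3.42, 2.78 and 5.84 CPM in sham Xmo 1 to 3, against 1.37, 1.81 and 2.77 CPM in sham saline 1 to 3 and shared its sequence and its reads with miR-466c-3p and miR-466p-3p, so these 3 are 1 measurement. Their lowest edgeR adjusted p was 0.311.

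miR-342-3p lay lower in sham Xmo with little spread. It had 535, 546 and 528 CPM in sham Xmo 1 to 3, against 680.3, 760.1 and 672 CPM in sham saline 1 to 3. Every sham Xmo library lay below every sham saline library (edgeR log2 fold change -0.39 with SE 0.10, adjusted p = 0.311). Its other arm, miR-342-5p, also lay lower in every library, with 53.7, 52.2 and 60.7 CPM in sham Xmo 1 to 3, against 67.02, 71.96 and 61.6 CPM in sham saline 1 to 3 (edgeR log2 fold change -0.27 with SE 0.13, adjusted p = 0.565). In OVX mice miR-342-3p had 673, 594 and 685 CPM in OVX Xmo 1 to 3, against 659, 679 and 674 CPM in OVX saline 1 to 3, with overlap. miR-335-5p, from an intron of the imprinted gene Mest, had 57.5, 57.04 and 57.1 CPM in sham Xmo 1 to 3, against 75.3, 100.4 and 108 CPM in sham saline 1 to 3 (edgeR log2 fold change -0.73 with SE 0.20, adjusted p = 0.311). The 3 sham Xmo libraries were nearly equal. Its 3p arm had 59.3, 42.1 and 77.7 CPM in sham Xmo 1 to 3, against 48.6, 45.9 and 78.8 CPM in sham saline 1 to 3 (log2 fold change 0.05).

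miR-16-5p, a regulator of cell cycle genes, had 10207, 9306 and 10014 CPM in sham Xmo 1 to 3, against 13989, 13039 and 12541 CPM in sham saline 1 to 3, without overlap (edgeR log2 fold change -0.42 with SE 0.13, adjusted p = 0.393). miR-93-5p, from a cluster in an intron of the replication gene Mcm7, had 361, 373 and 365 CPM in sham Xmo 1 to 3, against 503, 505 and 406 CPM in sham saline 1 to 3 (edgeR log2 fold change -0.36 with SE 0.12, adjusted p = 0.393). miR-181d-5p had 210.4, 199.5 and 216 CPM in sham Xmo 1 to 3, against 269.6, 315 and 234 CPM in sham saline 1 to 3 (edgeR log2 fold change -0.39 with SE 0.13, adjusted p = 0.393). Of the scarcer ones, miR-3061-3p averaged 2.17 ± 0.309 CPM in the sham Xmo libraries, against 3.29 ± 0.235 CPM in the sham saline libraries (SD, n = 3 each), miR-1197-3p 1.73 ± 0.822 CPM in the sham Xmo libraries, against 3.33 ± 0.409 CPM in the sham saline libraries (SD, n = 3 each) and miR-190b-5p 3.61 ± 0.777 CPM in the sham Xmo libraries, against 5.396 ± 0.879 CPM in the sham saline libraries (SD, n = 3 each). All 20 of these higher and lower miRNAs had groups without overlap, a property that choosing by p favours.

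miR-669c-5p, of the Sfmbt2 cluster, was either at 0 or well above it. It had 0 reads in sham Xmo 1 to 3, against 155, 234 and 177 reads in sham saline 1 to 3, or 15.1, 23.6 and 16.9 CPM. Counted at 3 reads per library in sham Xmo it was at least 62.0-fold lower (edgeR adjusted p = 0.311). In OVX mice it had 0, 185 and 170 reads in OVX Xmo 1 to 3, against 3, 153 and 156 reads in OVX saline 1 to 3. Its presence thus varied within both OVX groups. The listed miRNAs of the cluster, which are miR-297, miR-466, miR-467 and miR-669 forms and include miR-669c-5p, summed to 662, 717 and 633 CPM in sham Xmo 1 to 3 and 783, 755 and 668 CPM in sham saline 1 to 3. Of 34 tested members of this list, 3 lay higher and 1 lower at an unadjusted p under 0.05, where the 3 are the identical miR-466b-3p, miR-466c-3p and miR-466p-3p. Over all tested miRNAs 5.62% lay higher and 3.80% lower at such a p, so the counts of the list were near that share.

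**Figure D3:**
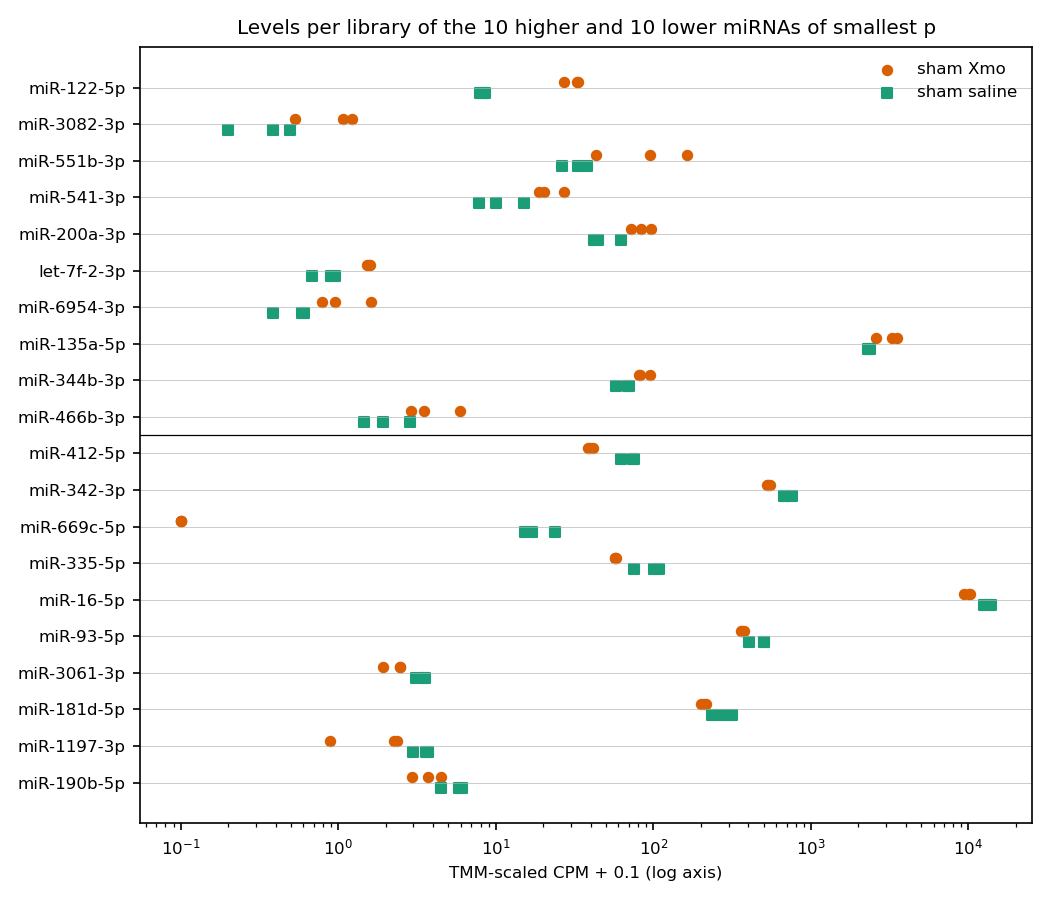
TMM-scaled CPM (plus 0.1, log axis) of the 10 higher and the 10 lower miRNAs of smallest p, with 3 sham Xmo libraries (circles) above 3 sham saline libraries (squares) in each row. The groups do not overlap in any row, the gap is wide for miR-122-5p, and miR-669c-5p is at 0 in all 3 sham Xmo libraries.

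Families that share a seed were then described, since their members can pair with the same messenger RNAs. Of 8 seed families with at least 4 tested members, the miR-30 family had the highest median log2 fold change, 0.41 over 6 members, against -0.02 over all tested miRNAs. Its seed is shown in miR-30a-5p.
miR-30a-5p: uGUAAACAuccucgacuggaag
let-7c-5p: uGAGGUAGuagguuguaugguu
miR-15a-5p: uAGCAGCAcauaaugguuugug
miR-30a-5p had 1019, 641 and 1027 CPM in sham Xmo 1 to 3, against 513, 588 and 822 CPM in sham saline 1 to 3, and miR-30d-5p 2131, 1535 and 2902 CPM in sham Xmo 1 to 3, against 1412, 1366 and 1769 CPM in sham saline 1 to 3. Sham saline 3 lay within the sham Xmo range for both. Of the 6 members 5 lay higher and none had an unadjusted p under 0.05. Their median in OVX mice was 0.34.

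The let-7 family, which shares the seed shown for let-7c-5p and which holds back growth and stem cell programmes, lay lower in all 10 tested members, with a median of -0.20. let-7c-5p, its most abundant member, had 54625, 73301 and 50948 CPM in sham Xmo 1 to 3, against 60536, 85405 and 62035 CPM in sham saline 1 to 3. The libraries overlapped here and in all members except let-7e-5p, which had 4729, 5083 and 4749 CPM in sham Xmo 1 to 3, against 5608, 5948 and 5086 CPM in sham saline 1 to 3 (edgeR log2 fold change -0.19 with SE 0.10, adjusted p = 0.565). The members differ by few bases, so their reads can be exchanged in counting. Their median in OVX mice was 0.09.

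The family of miR-16-5p, whose seed is shown in miR-15a-5p, lay lower in 5 of 6 members (median -0.16), and 2 of them, miR-16-5p and miR-15a-5p, had an unadjusted p under 0.05, against 3.80% lower at such a p over all tested miRNAs. miR-15a-5p had 1057, 1004 and 852 CPM in sham Xmo 1 to 3, against 1129, 1095 and 1244 CPM in sham saline 1 to 3. The family of miR-93-5p and miR-17-5p had a median of -0.22 over 5 members, the lowest of the 8, and miR-93-5p alone had an unadjusted p under 0.05. The miR-181 family had a median of -0.11 over 4 members. Its most abundant member, miR-181a-5p, had 31496, 43556 and 34748 CPM in sham Xmo 1 to 3, against 38729, 39569 and 35287 CPM in sham saline 1 to 3, with overlap.

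Neighbours in the genome gave a further grouping, since a cluster is often made as 1 transcript. RefSeq placed 504 of the 605 tested miRNAs, and 20 clusters with gaps of at most 10 kb held at least 4 of them. The cluster of miR-200a, miR-200b and miR-429 had the highest median, 0.59, and all 5 of its tested miRNAs lay higher. miR-200a-5p had 2.25, 2.24 and 2.83 CPM in sham Xmo 1 to 3, against 1.56, 0.906 and 2.01 CPM in sham saline 1 to 3 and miR-429-3p 229, 226 and 237 CPM in sham Xmo 1 to 3, against 149, 109 and 244 CPM in sham saline 1 to 3. Both arms of miR-200a were without overlap, while in miR-429-3p sham saline 3 lay above every sham Xmo library. The lowest median, -0.30, was in the X-linked cluster of miR-363, miR-92a, miR-19b and miR-20b, of which miR-92a and miR-19b have another copy on chromosome 14, in which 4 of 4 lay lower and none had an unadjusted p under 0.05. The X-linked cluster of miR-322, miR-503, miR-351, miR-450a, miR-450b and miR-542 lay lower in 8 of 8 (median -0.23), also with none at an unadjusted p under 0.05.

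The Dlk1-Dio3 region holds miR-412 and many miRNAs of neurons. Of 63 listed members 59 were tested, and 28 lay higher and 31 lower, with a median of -0.01. At an unadjusted p under 0.05, 1 member of this list lay higher, miR-541-3p, and 2 lay lower, miR-412-5p and miR-411-3p, against 5.62% higher and 3.80% lower over all tested miRNAs. miR-1197-3p, which is not in the list, also lies in this region by its RefSeq position, in a cluster of 57 tested miRNAs of which 1 lay higher and 3 lower at such a p. The summed level was 66329, 65410.1 and 61603 CPM in sham Xmo 1 to 3 and 63020.2, 64734 and 63941 CPM in sham saline 1 to 3, with overlap. miR-127-3p, its most abundant member, had 26769.7, 28127 and 26076 CPM in sham Xmo 1 to 3, against 29113, 26156 and 26457 CPM in sham saline 1 to 3.

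Across hairpins the log2 fold changes of both arms were little related. Both arms were tested in 178 hairpins, and their log2 fold changes had the same sign in 82 (46.1%), with a Pearson r of 0.07 across hairpins that share their libraries. Of 23 hairpins with an arm at an unadjusted p under 0.05, both arms met it in 1, miR-200a, and 11 had the same sign. Arms with identical reads were counted for each hairpin. The single measurement of miR-466b-3p, miR-466c-3p and miR-466p-3p thus enters 3 times, here and among the higher miRNAs that follow. Among the 34 higher miRNAs at an unadjusted p under 0.05, 67.6% were 3p arms, against 43.5% of the 23 lower ones and 49.9% of all 605. let-7d-3p is an example, with 172, 240.2 and 275 CPM in sham Xmo 1 to 3, against 52.6, 117 and 159 CPM in sham saline 1 to 3. miR-124-5p, the scarce arm of miR-124, had 31.9, 25.00 and 21.9 CPM in sham Xmo 1 to 3, against 20.1, 17.4 and 19.4 CPM in sham saline 1 to 3. The higher miRNAs were scarcer, with a median level of 7.88 CPM, against 75.9 CPM for the lower ones and 20.1 CPM for all.

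Lists of miRNAs known from other tissues and cell types were read beside these results. Among tissues that adjoin the hippocampus, the cluster of sensory neurons and thalamus, miR-96, miR-182 and miR-183, had a summed level of 81.9, 44.9 and 99.1 CPM in sham Xmo 1 to 3 and 38.3, 19.8 and 21.6 CPM in sham saline 1 to 3. All 3 tested members lay higher at an unadjusted p under 0.05, as did 5.62% of all tested miRNAs. Their sequences share most of the seed.
miR-96-5p: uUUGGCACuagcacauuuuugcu
miR-182-5p: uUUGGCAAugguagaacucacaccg
miR-183-5p: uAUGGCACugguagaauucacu
miR-183-5p had 48.1, 27.03 and 50.01 CPM in sham Xmo 1 to 3, against 20.6, 11.2 and 13.8 CPM in sham saline 1 to 3 (edgeR log2 fold change 1.46 with SE 0.62, adjusted p = 0.514). miR-96-5p had 11.9, 7.16 and 14.4 CPM in sham Xmo 1 to 3, against 4.59, 1.81 and 3.53 CPM in sham saline 1 to 3, also without overlap, and miR-182-5p had 21.8, 10.6 and 34.7 CPM in sham Xmo 1 to 3, against 13.1, 6.64 and 4.298 CPM in sham saline 1 to 3, with overlap. In OVX mice the summed level was 101, 62.7 and 78.3 CPM in OVX Xmo 1 to 3 and 53.4, 67.3 and 320.2 CPM in OVX saline 1 to 3, where OVX saline 3 stood far above the rest. The part of adjoining tissue in the levels of this cluster was not tested, and in bulk tissue more cells of a type and more RNA per cell cannot be told apart.

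miRNAs of choroid plexus and epithelia varied strongly between libraries. The summed level of 10 listed miRNAs was 8171, 11506 and 43785 CPM in sham Xmo 1 to 3 and 17655, 9811 and 21624 CPM in sham saline 1 to 3, so sham Xmo 3 stood above the other 5 libraries. miR-448-3p, from an intron of the choroid plexus receptor gene Htr2c, had 2.64, 1.71 and 42.01 CPM in sham Xmo 1 to 3, against 25.5, 1.71 and 26.7 CPM in sham saline 1 to 3. miR-204-5p, abundant in choroid plexus, had 7751, 11116 and 43288 CPM in sham Xmo 1 to 3, against 17365, 9594 and 21214 CPM in sham saline 1 to 3. Its paralog miR-211-5p had 16.04, 21.3 and 50.3 CPM in sham Xmo 1 to 3, against 7.22, 10.7 and 7.74 CPM in sham saline 1 to 3, without overlap (edgeR log2 fold change 1.77 with SE 0.73, adjusted p = 0.499). The pair differ by 1 edit.
miR-204-5p: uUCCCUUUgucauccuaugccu
miR-211-5p: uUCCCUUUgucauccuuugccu
Of 9 tested members, 7 lay higher, and 3 of them at an unadjusted p under 0.05, which were miR-200a-3p, miR-141-3p and miR-211-5p. Over all tested miRNAs 47.3% lay above 0 and 5.62% lay higher at such a p. miR-448-3p was thus high in sham Xmo 3, sham saline 1 and sham saline 3 and low in the other 3 libraries, and the part of choroid plexus tissue in these results was not tested.

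In the erythroid list the groups overlapped. The erythroid list, led by miR-451a, had a summed level of 4746, 7282 and 9209 CPM in sham Xmo 1 to 3 and 8313, 6204 and 7661 CPM in sham saline 1 to 3. Of 7 tested members 6 lay higher (median 0.32), where 47.3% of all tested miRNAs lay above 0, and none had an unadjusted p under 0.05. miR-144-3p, made from the same transcript as miR-451a, had 96.9, 112 and 138 CPM in sham Xmo 1 to 3, against 42.05, 70.6 and 101 CPM in sham saline 1 to 3, and miR-451a itself 4578, 7072 and 8901 CPM in sham Xmo 1 to 3, against 8161, 6043 and 7478 CPM in sham saline 1 to 3. The muscle list was scarce. Its summed level was 47.3, 61.2 and 53.2 CPM in sham Xmo 1 to 3 and 72.4, 68.9 and 67.1 CPM in sham saline 1 to 3, lower without overlap. That held for the sum only. All 3 tested members lay lower, but the groups overlapped in each and none had an unadjusted p under 0.05.

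The oligodendrocyte list had 1 of 5 tested members at an unadjusted p under 0.05, miR-219a-2-3p, which promotes oligodendrocyte maturation, against 9.42% of all tested miRNAs. It had 1879, 2648 and 2321 CPM in sham Xmo 1 to 3, against 2906, 2860.4 and 2990.2 CPM in sham saline 1 to 3, lower without overlap (edgeR log2 fold change -0.35 with SE 0.15, adjusted p = 0.499). miR-219a-5p, the 1 member that lay higher, had 611, 549.6 and 498 CPM in sham Xmo 1 to 3, against 158, 507 and 633 CPM in sham saline 1 to 3, with overlap (log2 fold change 0.35). miR-338-3p, the other leading miRNA of these cells, had 1840.2, 2127 and 1679 CPM in sham Xmo 1 to 3, against 1867, 1722 and 2329 CPM in sham saline 1 to 3. In the list of microglia and leukocytes 3 of 8 tested members lay higher and 5 lower, with 1 at an unadjusted p under 0.05. This was miR-146a-5p, which NF-kB induces in inflammation, with 344, 361 and 341 CPM in sham Xmo 1 to 3, against 401, 394 and 499.9 CPM in sham saline 1 to 3 (edgeR log2 fold change -0.31 with SE 0.14, adjusted p = 0.515). miR-223-3p of myeloid cells had 3.52, 3.95 and 8.01 CPM in sham Xmo 1 to 3, against 13.7, 5.94 and 7.26 CPM in sham saline 1 to 3, with overlap. The 3 higher members, miR-142a-5p, miR-142a-3p and miR-150-3p, had log2 fold changes of 0.48, 0.34 and 0.20, all with overlap. Of 2 tested endothelial miRNAs 1 lay lower and 1 higher. miR-126a-3p had 16925, 19228 and 18358 CPM in sham Xmo 1 to 3, against 24619.5, 19794 and 20284 CPM in sham saline 1 to 3, without overlap (edgeR log2 fold change -0.25 with SE 0.11, adjusted p = 0.515), and the other arm, miR-126a-5p, had 501, 414 and 454 CPM in sham Xmo 1 to 3, against 320.4, 324 and 455 CPM in sham saline 1 to 3, with overlap (log2 fold change 0.32). Mural and fibroblast miRNAs summed to 3419, 3633 and 5661 CPM in sham Xmo 1 to 3 and 7913, 3657 and 3861 CPM in sham saline 1 to 3, with none of 11 at an unadjusted p under 0.05.

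The neuronal list was centred near 0. Of 17 tested members, 7 lay higher and 10 lower (median -0.02), and 2 lay higher at an unadjusted p under 0.05, miR-135a-5p and miR-124-5p, against 5.62% of all tested miRNAs. Of 7 miRNAs regulated by neuronal activity none had an unadjusted p under 0.05. miR-212-3p had 585, 565 and 641 CPM in sham Xmo 1 to 3, against 569.5, 665 and 664 CPM in sham saline 1 to 3. In the miR-17 to miR-92 clusters 1 of 12 had one, miR-93-5p, which lay lower, against 3.80% lower over all tested miRNAs. In the list of stress and inflammation 1 of 11 lay higher at such a p, miR-125b-5p, and 1 lower, miR-146a-5p. Over all tested miRNAs these shares were 5.62% higher and 3.80% lower. miR-125b-5p had 4061, 2701 and 13522 CPM in sham Xmo 1 to 3, against 2774, 2315 and 3502 CPM in sham saline 1 to 3, so its level in sham Xmo rested on library 3 and the groups overlapped (edgeR log2 fold change 1.24 with SE 0.49, adjusted p = 0.499). No member of the miR-29 list (6 tested) or of the miR-34 list (6 tested) had an unadjusted p under 0.05. In the astrocyte list 1 of 6 had one, miR-335-5p, which lay lower, against 3.80% lower over all tested miRNAs.

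**Figure D4:**
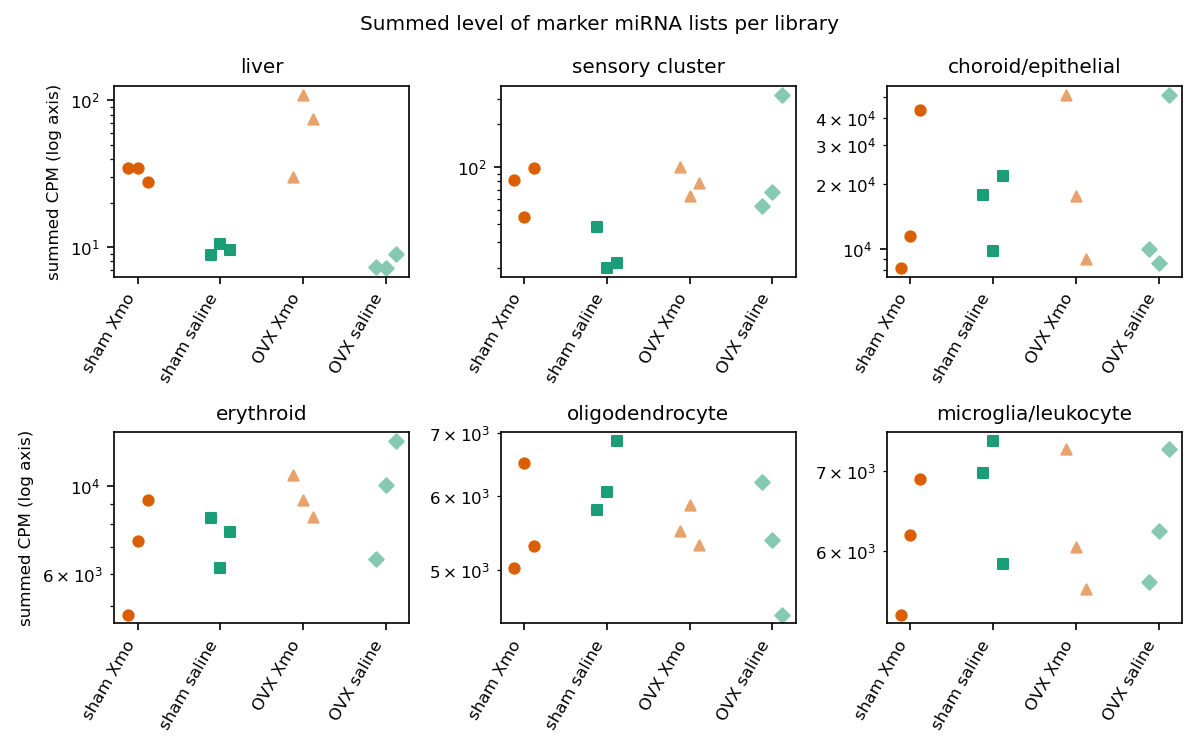
Summed TMM-scaled CPM (log axis) of the miRNAs of 6 lists in each of 12 libraries, with groups along the x axis and 3 points a group. The liver list, which is nearly all miR-122-5p, separates both Xmo groups from their saline groups; the sensory cluster does not overlap between sham Xmo and sham saline and overlaps between the OVX groups; sham Xmo 3, OVX Xmo 1 and OVX saline 3 are high in the choroid and epithelial list.

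The same treatment in OVX mice was measured in a separate set of 6 libraries. There edgeR called 1 of 605 miRNAs (0.165%), miR-122-5p, with 46 (7.60%) at an unadjusted p under 0.05, 18 higher (2.98%) and 28 lower (4.63%). DESeq2 called 3 (0.496%), of which miR-122-5p lay higher and miR-412-5p and miR-127-3p lower. The OVX groups did not overlap in 93 miRNAs (15.4%), 40 higher (6.61%) and 53 lower (8.76%), and 6 of the 20 named miRNAs were among them in the same direction as in sham mice. Of the 57 miRNAs at an unadjusted p under 0.05 in sham mice, 33 (57.9%) had the same sign in OVX mice, against 55.0% of all 605. The Pearson r of the log2 fold changes was 0.10 across miRNAs and Spearman's rho 0.14, in libraries with no sample in common. At an unadjusted p under 0.05 in both comparisons were 9 miRNAs, 15.8% of the sham set and 19.6% of the OVX set, and 8 of them had the same sign. Both comparisons used the same estimate of the spread of each miRNA. A miRNA with a low estimate is therefore favoured to reach such a p in both. miR-122-5p, miR-3082-3p and miR-135a-5p lay higher in both, and miR-412-5p, miR-181d-5p, miR-700-3p, miR-30c-1-3p and miR-344c-3p lower. The exception was miR-6899-3p, which had 2.25, 1.82 and 2.17 CPM in sham Xmo 1 to 3, against 1.17, 1.61 and 1.34 CPM in sham saline 1 to 3, and 1.17, 0.787 and 1.200 CPM in OVX Xmo 1 to 3, against 1.83, 1.77 and 1.62 CPM in OVX saline 1 to 3.

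miR-135a-5p had 3500.3, 3781 and 2967 CPM in OVX Xmo 1 to 3, against 2430.3, 2452 and 2049 CPM in OVX saline 1 to 3, so both Xmo groups lay above both saline groups. miR-3082-3p had 0.783, 0.984 and 0.9999 CPM in OVX Xmo, against 0.288, 0.295 and 0.285 CPM in OVX saline. miR-700-3p had 72.4, 75.1 and 71.2 CPM in sham Xmo 1 to 3, against 101, 84.04 and 88.6 CPM in sham saline 1 to 3, and 71.4, 64.5 and 73.6 CPM in OVX Xmo, against 99.6, 87.4 and 82.8 CPM in OVX saline.

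The difference between the Xmo effects was tested directly. edgeR called 0 of 605 miRNAs (0%), with 42 (6.94%) at an unadjusted p under 0.05, where the log2 fold change was higher in OVX mice in 20 (3.31%) and lower in 22 (3.64%), and DESeq2 called 0; the smallest edgeR adjusted p was 0.647. The smallest p were those of miR-6899-3p, miR-155-5p and miR-223-3p. miR-155-5p, induced in activated immune cells, had 4.11, 5.13 and 5.37 CPM in sham Xmo 1 to 3, against 5.95, 5.23 and 6.59 CPM in sham saline 1 to 3, and 4.89, 9.44 and 8.599 CPM in OVX Xmo, against 4.23, 3.64 and 3.71 CPM in OVX saline. The log2 fold change of miR-223-3p was -0.79 in sham mice and 1.05 in OVX mice (edgeR unadjusted p of the difference = 0.00736, adjusted p = 0.647).

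**Figure D5:**
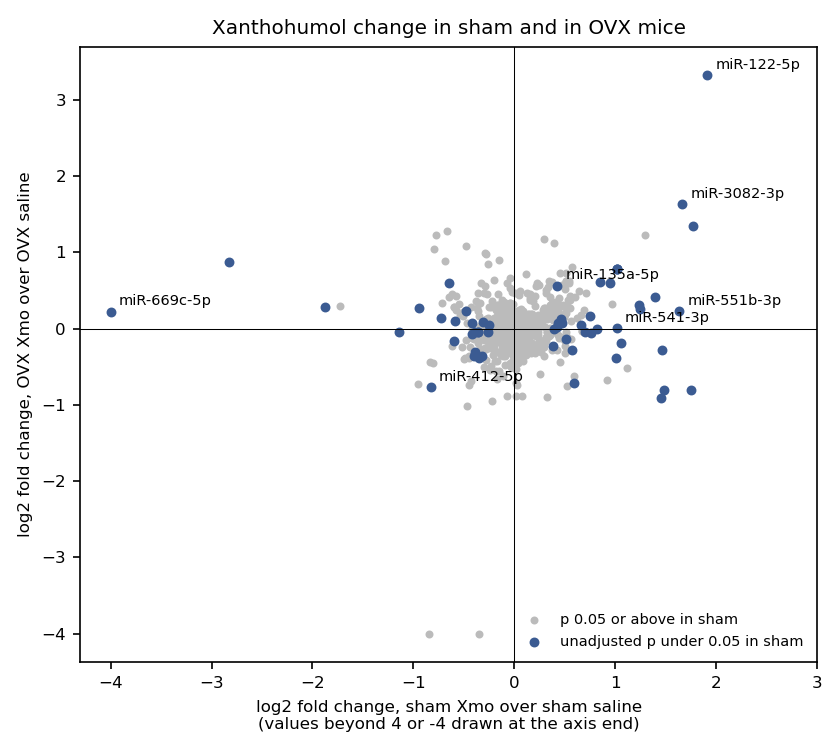
Each point is 1 of 605 miRNAs, with its log2 fold change of sham Xmo over sham saline on the x axis and of OVX Xmo over OVX saline on the y axis; blue marks an unadjusted p under 0.05 in sham mice and far values are drawn at the axis end. miR-122-5p lies apart at the upper right, miR-412-5p at the lower left, and miR-551b-3p and miR-541-3p lie near 0 on the y axis.

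The authors' deposited table called 9 of 1271 miRNAs at a DESeq2 q under 0.05 for sham Xmo against sham saline, 6 higher and 3 lower. In the authors' deposited table miR-669c-5p (q = 1.81e-33) and miR-122-5p (log2 fold change 1.88, q = 2.91e-14) had the smallest q. The other higher ones of the authors' deposited table were miR-183-5p, miR-96-5p, miR-211-5p, miR-551b-3p and miR-24-3p, and the other lower ones miR-412-5p (log2 fold change -0.85, q = 0.00443) and miR-3535. miR-24-3p, a miRNA that limits apoptosis and cell division, had 8395, 9185 and 9243 CPM in sham Xmo 1 to 3, against 4572, 4225 and 6374 CPM in sham saline 1 to 3, without overlap (edgeR log2 fold change 0.82 with SE 0.28, adjusted p = 0.393). miR-3535 had 0.391, 0.427 and 1.98 CPM in sham Xmo 1 to 3, against 9.07, 10.3 and 1.05 CPM in sham saline 1 to 3, so sham saline 3 lay within the range of sham Xmo.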

How the data were processed

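Small RNA of mouse hippocampus was sequenced in 12 libraries, 3 in each of 4 groups, and the 6 sham libraries are the subject here. The authors deposited read counts per mature miRNA, per the file headers, and Bowtie2 2.3.2, StringTie 1.3.3b, Trimmomatic 0.36 and FastQC 0.11.2 stand in the submitters' processing notes, with no roles. The labels' protocols name Trizol for the RNA and a TruSeq RNA kit for the libraries. A second set of deposited counts, headed exp, equalled the reads in 95.7% of 7542 values of 1 to 99 reads. It was only 12.6% to 63.7% of the reads in the 248 most abundant values, so it saturates, and no source used here says how it was made. Its total was 44.2%, 42.9% and 45.1% of the reads in sham Xmo 1 to 3, against 40.6%, 38.7% and 40.2% in sham saline. In OVX Xmo 1 to 3 it was 43.3%, 42.6% and 43.6%, against 39.7%, 39.6% and 38.2% in OVX saline. This share was higher in every Xmo library than in every saline library, and the cause was not tested. The authors' own log2 fold changes with DESeq2 p-value and q-value columns, as deposited, are cited as theirs. A further 12 columns of the gene table match no sample and were not used, nor was the gene table.

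Reads were filtered with edgeR's filterByExpr by group (605 of 1387 miRNAs), scaled by TMM and fitted with edgeR 4.0.16 on all 4 groups, without a block. R 4.3.3, limma 3.58.1 and DESeq2 1.42.0 served for alternatives. The threshold was 0.05 after Benjamini-Hochberg adjustment. The SE of an edgeR log2 fold change is an approximation, its absolute value divided by the square root of the quasi-likelihood F statistic. The fit was tested on simulated data. The limit of 3 reads covers counting error only. Named miRNAs are the 10 higher and 10 lower of smallest p, since fewer than 10 passed, the 10 most abundant, leading list members, the 3 of smallest p in the difference of effects and the 5 of smallest p in the authors' deposited table, and a few others chosen after their values were seen. The comparison and the 21 lists were chosen with earlier results of these data known. Mature sequences come from the deposited table and match RefSeq wherever it has an entry.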

Additional observations from a re-analysis of the deposited data

How the results depend on the processing

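In sham Xmo against sham saline the count of 0 became 1 without a filter on low counts (miR-122-5p, of 1357 tested), 2 in a fit of these groups only (miR-122-5p and miR-669c-5p), 6 in DESeq2 and 4 with the exp counts (miR-532-3p, miR-122-5p, miR-412-5p and miR-26a-5p). It was 0 with each of the other scalings, the stricter filter, limma-voom and the replicate block. In 1 value of miR-532-3p the exp count was over 10-fold below the reads, and by reads its sham groups overlapped. Leaving out each sham library in turn gave 0 to 0 calls, with 32 to 82 miRNAs at an unadjusted p under 0.05. For OVX Xmo against OVX saline the count of 1 became 3 in DESeq2 and 4 with the exp counts, and 1 to 3 when a library was left out; in a fit of these groups only the 1 call was miR-532-3p. The difference between the Xmo effects gave 0 to 1 calls when a library was left out (miR-122-5p without OVX Xmo 1) and 0 otherwise. The causes were not tested, except that the fit of only the groups compared has fewer libraries. All 315 values of the 20 named miRNAs under up to 16 alternatives kept their direction, and 11 passed. These 20 were chosen by smallest p in the same libraries and had groups without overlap. A kept direction was therefore nearly fixed in advance and adds no support. miR-122-5p passed in 4 of 16 (log2 fold change between 1.90 and 2.01, adjusted p between 9.08e-05 and 0.374) and miR-412-5p in 2 of 16 (between -0.91 and -0.77, adjusted p between 0.000119 and 0.395). With the replicate block the log2 fold changes were 1.92 and -0.82. The labels state no pairing of the libraries. Deviations of same-numbered sham libraries from their group means had a Pearson r of -0.22, 0.40 and 0.02 for numbers 1 to 3. These 3 values cannot decide whether the numbers pair the libraries, since the deviations within a group must sum to 0. miRNAs below about 0.3 CPM are at the limit of 3 reads.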

Other observations

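A few miRNAs were near 0 in some libraries and well above it in others, within groups as well as between them. miR-532-3p had 23.6, 0.214 and 0.188 CPM in sham Xmo 1 to 3, against 27.1, 15.9 and 0.191 CPM in sham saline 1 to 3, and 0.196, 0.295 and 0.3000 CPM in OVX Xmo 1 to 3, against 15.96, 23.05 and 11.6 CPM in OVX saline 1 to 3. miR-677-5p had 0.196, 0.427 and 0.659 CPM in sham Xmo 1 to 3, against 1.85, 2.42 and 0.573 CPM in sham saline 1 to 3. Both differed between libraries of 1 group.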
